A study of Mus musculus with 17 samples.

Results

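Hepatocytes of triple-knockout (tKO) mice were compared with hepatocytes of double-knockout (dKO) mice across all measured genes. The libraries were chosen by their genotype label, 3 dKO libraries (replicates 4, 5 and 6) and 3 tKO libraries (replicates 7, 8 and 9), which makes 6 of the 17 samples of the series. The 3 wild-type (WT) hepatocyte libraries (replicates 1, 2 and 3) gave the reference level, and the other 8 samples, from whole liver, were not compared here. The dKO genotype on the labels is Sms1/Sms2-dKO and the tKO genotype is Sms1/Sms2/Smsr-tKO, so both groups carry lesions of Sgms1 and Sgms2 and the tKO group adds a lesion of Samd8, the gene of SMSr. All 9 hepatocyte samples came from mice of 2 months, whose livers were dissociated with collagenase in successive steps. The sources used here do not give the sex or strain of these mice, how the alleles were built, in which cells they act, or whether each library stands for its own mouse. The p-values below therefore rest on the spread among 3 libraries a group, part or all of which may be technical.

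Sphingomyelin synthases 1 and 2, the products of Sgms1 and Sgms2, move the phosphocholine head group from phosphatidylcholine to ceramide, which yields sphingomyelin and diacylglycerol in the Golgi and at the plasma membrane. SMSr resides in the endoplasmic reticulum and makes the related lipid ceramide phosphoethanolamine from ceramide and phosphatidylethanolamine. Hepatocytes secrete plasma proteins and lipoproteins and carry large families of cytochrome P450 enzymes, many of which differ between male and female mice.

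Each library held 9221488 to 9665309 expected counts, and 11471 genes passed the filter on low counts. Levels are in CPM, the count relative to a library total scaled by the trimmed mean of M values, as mean ± SD over 3 libraries, and differences are log2 fold changes of tKO against dKO ± SE unless stated. A gene is called where its Benjamini-Hochberg adjusted p in edgeR's quasi-likelihood test was under 0.05, with no minimum fold. Of the tested genes, 3382 were called (29.5%), 1641 higher in tKO (14.3%) and 1741 lower (15.2%), and the median difference over all tested genes was 0.00. At 2-fold or more there were 312 (2.72%), of which 103 were higher (0.898%) and 209 lower (1.82%). In 4562 genes the dKO and tKO libraries did not overlap (39.8%), and DESeq2 called 2467 genes (21.5%). The libraries of a group varied little, with a common biological coefficient of variation of 3.52%, so that small differences were called. With the dispersion of the series' liver libraries (20.3%) in its place, 326 genes were called (2.84%), 110 higher (0.959%) and 216 lower (1.88%). The first principal component, with 62.9% of the variance, set both knockouts apart from WT. Its positions were 22.6 to 23 for dKO, 21 to 21.4 for tKO and −44.6 to −43.2 for WT. On the second principal component, with 18.5% of the variance, dKO libraries lay at 19.6 to 21.7 and tKO libraries at −21.5 to −20.2, with WT at 0.2 to 0.9.

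Transcripts of the 3 targeted genes were present in every knockout library. Samd8 (chr14:21750531-21798726, GRCm38.p6) stood at 75.1, 82.8 and 86.9 CPM in the dKO libraries and at 103.5, 100.7 and 97.6 in the tKO libraries. All tKO libraries lay above all dKO libraries, by 0.30 ± 0.0561 (edgeR adjusted p = 9.23e-06), and WT stood lowest at 69.7 ± 3.57 CPM. Sgms1 (chr19:32122727-32389885) stood at 90.5 ± 5.55 CPM in dKO and 58.7 ± 3.31 in tKO, lower by −0.62 ± 0.0608 (edgeR adjusted p = 1.7e-14), next to 49.8 ± 3.34 in WT. Sgms2 (chr3:131318985-131491443) was at 149.6 ± 7.12 CPM in tKO, and its difference from dKO of −0.00 ± 0.0528 did not pass (edgeR adjusted p = 0.963). The calls of Samd8 and Sgms1 ended with the liver dispersion (edgeR adjusted p = 0.9996 and 0.207). Loss of a few exons need not lower a count summed over the gene, so these levels do not check the labels, by which the groups are named. In the 10 Mb on either side of Samd8, 6 of 99 tested genes differed by 1.5-fold or more (6.06%), beside 7.26% of all tested genes. The same windows held 10 of 108 for Sgms1 (9.26%) and 6 of 63 for Sgms2 (9.52%).

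The WT level parted genes that came back towards WT in tKO from genes that moved elsewhere. At a fold of 1.5 or more, 833 genes were called (7.26%), 282 higher in tKO (2.46%) and 551 lower (4.8%). For 112 of them the dKO level differed from WT and the tKO mean lay within 1.2-fold of WT. A further 233 moved part of the way, and 222 of those were genes raised in dKO that fell in tKO without reaching WT. In 108 genes tKO passed WT and lay beyond it by over 1.2-fold, and in 137 tKO moved further from WT in the direction dKO had taken, 86 of them upward. The last 243 were genes for which dKO was not called against WT. Calls against WT numbered 5045 in dKO (44%) and 5435 in tKO (47.4%). These comparisons share the WT libraries, and the dKO libraries enter the comparison with WT and the one with tKO. A shift of the dKO libraries alone could place genes at or towards the WT level in tKO, so the classes describe the levels only.

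**Figure D1:**
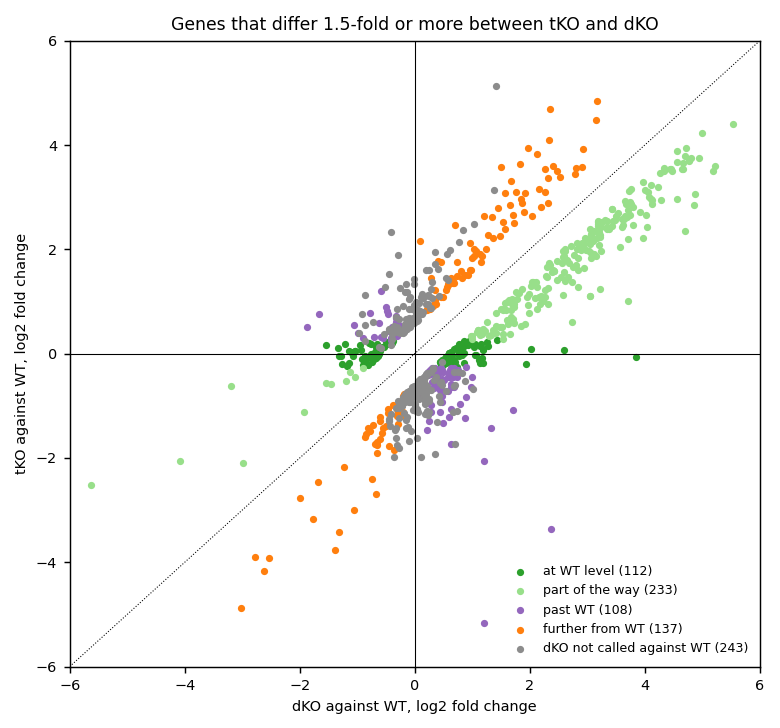
Each point is a gene called between tKO and dKO at 1.5-fold or more, with its log2 fold change of dKO against WT on the x axis and of tKO against WT on the y axis. Points on the dotted line would be equal in tKO and dKO, colours give the position of WT with the number of genes, and 19 points lie outside the axes. The light green band below the line at right holds most of the 233 genes that moved part of the way, which were raised in dKO and less raised in tKO.

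In the plot of both genotypes against WT, the dense band of partly reversed genes lies in the quadrant where dKO and tKO both exceed WT. The horizontal strip at 0 holds the genes whose tKO mean lay at the WT level.

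The largest differences were losses of female-biased liver genes. Cyp2b13 and Cyp2b9, cytochrome P450 genes known for expression in female mouse liver, lie in 1 cluster of chromosome 7 and were almost without counts in tKO. Cyp2b13 (chr7:26061388-26096197) had 478, 478 and 427 counts in the dKO libraries, 400, 394 and 404 in WT, and 0 in each tKO library. The tKO level was at least 473-fold lower than dKO, with 3 counts over the group as the floor. Cyp2b9 (chr7:26173350-26210661) had 1101, 1025 and 1048 counts in dKO, 1280, 1386 and 1365 in WT and 2, 1 and 2 in tKO, a 651-fold lower level with a counting interval of 279 to 2010. Both were called (edgeR adjusted p = 2.89e-50 and 6.16e-63).

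The transcripts of this pair are 91.2% identical over their aligned bases, so reads could be shared between them. The 250 bases before 1 RefSeq start of each gene (GRCm38.p6) are shown because the genes fell together. In both genes that start lies inside the gene span given above, which begins at an earlier position, so the stretches run past the beginning of the span. They differ at 2 of 250 bases, a 99.2% identity, and those positions are in capitals.
Cyp2b13 (chr7:26061245-26061494, + strand): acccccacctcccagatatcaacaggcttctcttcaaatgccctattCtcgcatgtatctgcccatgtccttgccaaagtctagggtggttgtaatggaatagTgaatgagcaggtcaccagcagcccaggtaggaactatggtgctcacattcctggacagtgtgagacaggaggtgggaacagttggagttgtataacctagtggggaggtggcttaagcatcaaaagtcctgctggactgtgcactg
Cyp2b9 (chr7:26173159-26173408, + strand): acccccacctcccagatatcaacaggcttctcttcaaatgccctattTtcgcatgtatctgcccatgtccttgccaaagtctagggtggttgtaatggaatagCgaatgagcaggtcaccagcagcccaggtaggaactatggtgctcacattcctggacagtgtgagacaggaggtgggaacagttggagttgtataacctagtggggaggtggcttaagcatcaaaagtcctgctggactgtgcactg

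Genes beside this pair in the cluster did not move as 1 block. Cyp2b10, a xenobiotic-induced P450 gene next to Cyp2b13, fell from 54.1 ± 1.81 CPM in dKO to 14.1 ± 1.66 in tKO, by −1.94 ± 0.0855 (edgeR adjusted p = 1.64e-33), and stood at 113 ± 9.23 in WT. Cyp2a5, a coumarin hydroxylase gene, rose to 8102, 7887 and 7652 CPM in the tKO libraries from 1871, 1913 and 1859 in dKO. WT libraries held 1699 to 1800 CPM, so that only the tKO libraries were high, and the difference was 2.07 ± 0.0342 (edgeR adjusted p = 2.32e-63). Cyp2a4, whose transcript is 98.2% identical to that of Cyp2a5 and whose counts are uncertain for that reason, rose by 0.89 ± 0.0366 (edgeR adjusted p = 1.26e-35). Summed over both genes, the level was 2702 ± 45.6 CPM in dKO and 9540 ± 249 in tKO. Cyp2a22 fell from 55.7 ± 1.94 to 8.1 ± 0.63 CPM, by −2.78 ± 0.0954 (edgeR adjusted p = 7.2e-41), while Cyp2a12 and Cyp2f2 at the end of the cluster differed by 0.05 ± 0.039 and −0.07 ± 0.0408 and were not called (edgeR adjusted p = 0.323 and 0.18).

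**Figure D2:**
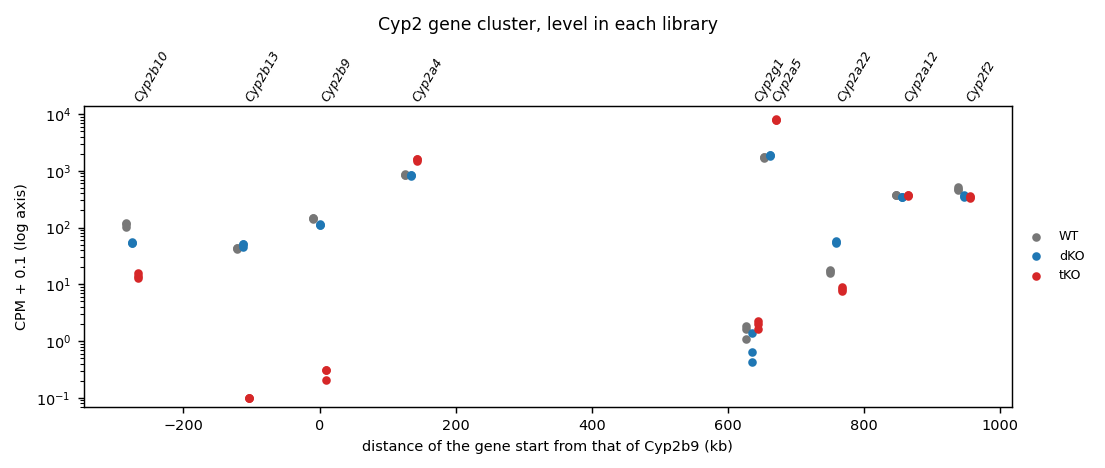
CPM relative to the library total, plus 0.1 and on a log axis, for the tested genes of the Cyp2 cluster, placed by the distance of the gene start from that of Cyp2b9 in kb. Each point is 1 library and the groups are set slightly apart. Red tKO points lie at the bottom for Cyp2b13 and Cyp2b9, below the others for Cyp2b10 and Cyp2a22, and above them for Cyp2a4 and Cyp2a5.

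The plot of the cluster shows genes in which tKO was lower and genes in which it was higher within 1 cluster, with dKO and tKO points close together for Cyp2a12 and Cyp2f2. Cyp2g1, a gene of low counts, was higher in tKO by 1.36 ± 0.397 (edgeR adjusted p = 0.00554).

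Of 31 tested female-biased genes, 3 rose and 17 fell, against 14.3% and 15.2% of all tested genes, and the list's median was −0.74. With the liver dispersion 14 still fell. Cyp2a4, given above, was among the 3 that rose. Summed over the list's 32 measured genes, the level was 3540 to 3610 CPM in WT, 3000 to 3050 in dKO and 3080 to 3270 in tKO. The sulfotransferase gene Sult2a2 (chr7:13733506-13779637), which conjugates steroids and bile acids, had 166, 167 and 168 counts in dKO, 95, 77 and 80 in WT and 0 in every tKO library, at least 171-fold lower than dKO. Cyp3a41a fell from 485 ± 13.9 to 94.3 ± 4.77 CPM, past the WT level of 315 ± 11.6, by −2.36 ± 0.0454 (edgeR adjusted p = 4.79e-59). Its copy Cyp3a41b, 99.7% identical, had 117 counts over the dKO libraries and 0 over the tKO libraries, at least 40-fold lower. Cyp17a1, a steroid hydroxylase, fell by −2.01 ± 0.124 and Cyp3a44 by −2.38 ± 0.175 (edgeR adjusted p = 1.61e-24 and 2.99e-20), both further below WT than dKO already was.

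Several low genes of the list followed. Sult2a1 had 110 counts over the dKO libraries and 1 over the tKO libraries, a 113-fold difference with a counting interval of 19.8 to 4490. Its transcript is 98.5% identical to that of Sult2a2 over 525 aligned bases, so reads could be shared between them. Summed over both genes, the level was 21.8 ± 0.775 CPM in dKO and 0.0345 ± 0.0597 in tKO. Cyp3a16 had 122 and 2 counts, a 62.5-fold difference with an interval of 16.9 to 522. Other members were level between the genotypes: A1bg stood at 4.47 ± 1.01 CPM in dKO and 4.16 ± 0.921 in tKO (edgeR adjusted p = 0.734), and Cyp2c69, Cyp2c40 and Trim24 were not called either.

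Male-biased genes moved in both directions. Of 32 tested, 15 rose and 7 fell, against 14.3% and 15.2% of all tested genes. The median was 0.34, and 4 fell where tKO replicate 8 was left out. Mup20, the gene of the pheromone protein darcin, stood at 200.3, 219.9 and 212 CPM in the dKO libraries and at 1105, 1074 and 996 in the tKO libraries. Both groups lay above WT (41.0 ± 2.62), and the difference was 2.33 ± 0.0421 (edgeR adjusted p = 8.51e-61). Serpina1e, an alpha-1-antitrypsin gene, rose from 35.6 ± 2.42 to 144 ± 3.26 CPM, part of the way to 599.9 ± 22.4 in WT, by 2.01 ± 0.0575 (edgeR adjusted p = 1.85e-46). Cyp2d9 returned to the WT level, from 8.91 ± 0.833 in dKO to 23.4 ± 1.43 in tKO, with 20.7 ± 0.971 in WT (difference 1.39 ± 0.112, edgeR adjusted p = 2.24e-18). Cyp4a12b, an arachidonic acid hydroxylase gene that is nearly silent in female mice, had 0 counts in WT, 1 over the dKO libraries and 71 over the tKO libraries. Its transcript is 98.3% identical to that of Cyp4a12a, so the split of reads between them is uncertain. Summed over both genes, the level was 1.0 ± 0.372 CPM in WT, 0.854 ± 0.319 in dKO and 6.32 ± 0.22 in tKO.

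In contrast, Mup17 fell from 178 ± 1.86 to 41.3 ± 2.73 CPM and Mup15 from 114 ± 4.3 to 39.2 ± 3.12, by −2.10 ± 0.0542 and −1.54 ± 0.0582 (edgeR adjusted p = 1.24e-49 and 5.01e-38). Major urinary protein genes are close copies, with Mup17 and Mup15 transcripts 98.5% identical, and the split of reads among them is uncertain. The sum over all 21 of them was 2599 ± 83.3 CPM in dKO, 3358 ± 147 in tKO and 8465 ± 60.8 in WT. Of the sex chromosome genes listed in any file, the Y-linked Ddx3y had 1 count in 1 WT library and 0 elsewhere, while Eif2s3y, Kdm5d, Uty and Xist were listed in 0 of the hepatocyte files. The growth hormone axis sets many sex differences of the liver. Of its 18 tested genes, 4 rose and 10 fell, beside 14.3% and 15.2% of all tested genes, with a median of −0.28. Igf1, the main growth factor under this axis, fell from 254 ± 8.11 to 200.1 ± 7.98 CPM, further below its WT level of 471 ± 15, by −0.34 ± 0.0429 (edgeR adjusted p = 2.72e-10), a call that ended with the liver dispersion.

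**Figure D3:**
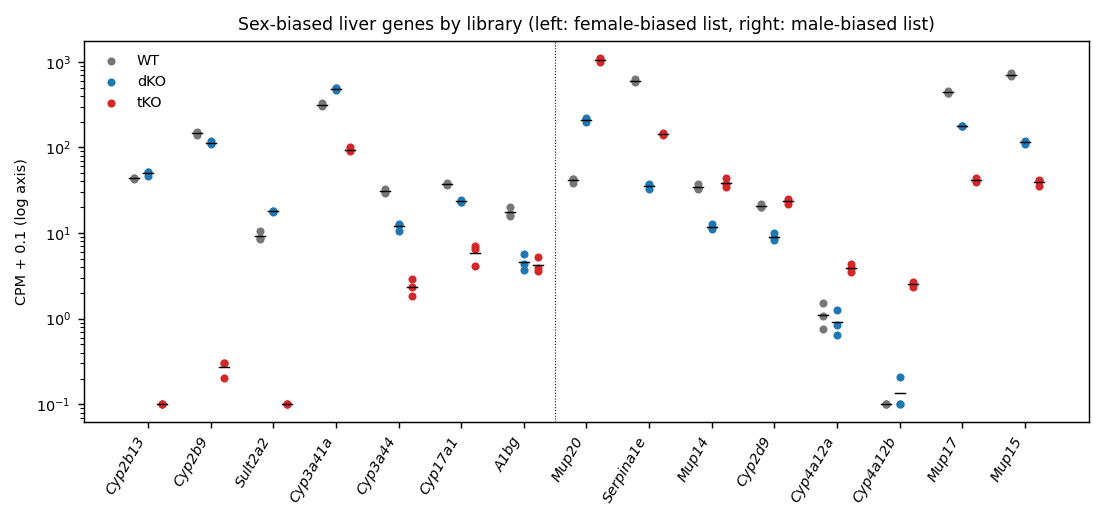
CPM plus 0.1 on a log axis in each of the 9 hepatocyte libraries (points, coloured by genotype) with the group mean (bar), for 7 genes of the female-biased list at left and 8 of the male-biased list at right, chosen after their values were seen. tKO points sit at the floor for Cyp2b13 and Sult2a2 and above both other genotypes for Mup20, Cyp4a12a and Cyp4a12b.

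In the plot of sex-biased genes the libraries of a genotype lie close together relative to the distance between genotypes, with A1bg as the gene where dKO and tKO overlap.

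Chaperones of the endoplasmic reticulum were reduced in dKO and back at the WT level in tKO. Of 25 tested genes for folding in this compartment, 20 rose and 2 fell (Xbp1 and P4hb), against 14.3% and 15.2% of all genes. The list's median was 0.35 for tKO against dKO, −0.35 for dKO against WT and 0.00 for tKO against WT, and 16 of the called members were at the WT level. Hspa5, the gene of the main luminal chaperone BiP, stood at 2101, 2138 and 2209 CPM in the dKO libraries and at 3401, 3123 and 3237 in the tKO libraries. The tKO libraries were all above dKO and near WT (3502 ± 110), with a difference of 0.60 ± 0.0343 (edgeR adjusted p = 2.41e-26).

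Its relatives moved alike. Hsp90b1, which encodes the luminal HSP90 chaperone, rose from 1112 ± 17.8 to 1758 ± 72.7 CPM, with 1819 ± 27.7 in WT (difference 0.66 ± 0.0349, edgeR adjusted p = 1.71e-28). Pdia4, a disulfide isomerase gene, rose from 252 ± 6.04 to 505 ± 13.7 CPM, with 438 ± 5.13 in WT (difference 1.001 ± 0.0394, edgeR adjusted p = 7.98e-37). Creld2 rose by 1.11 ± 0.0613 and Derl3, a component of the degradation of misfolded proteins, by 1.60 ± 0.127 (edgeR adjusted p = 1.74e-27 and 1.14e-18). Derl3 went past WT, at 20.7 ± 2.5 CPM against 14.2 ± 1.34. With the liver dispersion 4 members kept the call (Pdia4, Creld2, Derl3 and Sdf2l1), and the calls of Hspa5 and Hsp90b1 ended (edgeR adjusted p = 0.234 and 0.142).

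The ER stress element, bound by ATF6 with NF-Y, was searched as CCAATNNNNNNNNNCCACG on both strands of the RefSeq promoters, from 250 bases before to 50 after the start. It was found in 9 of the 22 list members with a promoter (40.9%) and in 37 of 27025 promoters in all (0.137%). All 9 were higher in tKO (Calr, Canx, Creld2, Derl3, Dnajc3, Hsp90b1, Hspa5, Pdia6 and Syvn1), as were 8 members without a match. Outside the list the match stood in 9 tested genes, of which 4 were higher and 0 lower. A match describes the letters in the window and not a bound site. The 250 bases before the start are shown for 4 of these genes, with the matches in capitals, since their levels carry the pattern.
Hspa5 (chr2:34771840-34772089, + strand): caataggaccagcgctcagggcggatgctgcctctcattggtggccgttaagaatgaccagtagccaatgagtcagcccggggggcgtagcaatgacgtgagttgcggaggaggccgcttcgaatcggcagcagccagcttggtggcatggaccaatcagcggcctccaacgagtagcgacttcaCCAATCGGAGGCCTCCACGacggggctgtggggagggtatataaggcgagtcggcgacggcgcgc
Hsp90b1 (chr10:86705445-86705694, − strand): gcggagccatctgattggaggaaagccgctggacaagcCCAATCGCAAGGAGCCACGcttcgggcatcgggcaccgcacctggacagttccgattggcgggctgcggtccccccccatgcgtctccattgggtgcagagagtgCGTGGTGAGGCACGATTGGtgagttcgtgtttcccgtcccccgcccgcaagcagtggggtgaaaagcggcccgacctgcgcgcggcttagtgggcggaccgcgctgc
Creld2 (chr15:88819396-88819645, + strand): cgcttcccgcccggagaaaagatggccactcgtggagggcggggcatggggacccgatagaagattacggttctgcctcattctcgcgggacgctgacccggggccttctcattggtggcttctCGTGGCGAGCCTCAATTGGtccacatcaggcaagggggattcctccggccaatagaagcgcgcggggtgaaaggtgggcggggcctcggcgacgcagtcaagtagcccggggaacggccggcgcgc
Derl3 (chr10:75893148-75893397, + strand): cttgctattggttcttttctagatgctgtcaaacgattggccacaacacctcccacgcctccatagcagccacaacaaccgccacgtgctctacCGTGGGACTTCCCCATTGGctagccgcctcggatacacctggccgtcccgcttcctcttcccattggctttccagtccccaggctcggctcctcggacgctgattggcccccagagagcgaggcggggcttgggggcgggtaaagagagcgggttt

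Cytosolic heat shock genes rose as well. Of 18 tested, 15 rose and 0 fell, against 14.3% and 15.2% of all tested genes. The list's median was 0.28, and the tKO median lay 0.22 above WT. Hspb1, a small heat shock protein gene, stood at 46.5, 48.3 and 47.7 CPM in dKO, at 75.2, 72.2 and 65.9 in WT and at 149, 175 and 165 in tKO. The tKO level exceeded dKO by 1.78 ± 0.0587 (edgeR adjusted p = 4.3e-42). Hsph1, an exchange factor of HSP70, rose by 0.90 ± 0.0525 and Hspa8, the constitutive HSP70, by 0.53 ± 0.0338 (edgeR adjusted p = 6.35e-26 and 9.69e-24). Hspa1b, an inducible HSP70 with a near-identical copy in Hspa1a, rose from 9.52 ± 0.562 to 21.0 ± 4.37 CPM, by 1.14 ± 0.123 (edgeR adjusted p = 1.28e-12), with 26.0 CPM in tKO replicate 9. The transcription factor gene Hsf1 itself was not called (0.06). With the liver dispersion 3 members were called.

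The heat shock element, searched as GAANNTTCNNGAA on both strands of the same windows, stood in 4 of 14 members with a promoter (28.6%) and in 179 of all 27025 promoters (0.662%). These were Chordc1, Hspd1, Hspe1 and Hsph1, all of which rose, as did 8 members without a match. In tested genes outside the list it stood in 48, of which 7 were higher and 4 lower. Hspe1 and Hspd1 are divergent neighbours whose windows share this stretch, shown for Hspe1 with 2 overlapping matches on opposite strands in capitals.
Hspe1 (chr1:55087898-55088147, + strand): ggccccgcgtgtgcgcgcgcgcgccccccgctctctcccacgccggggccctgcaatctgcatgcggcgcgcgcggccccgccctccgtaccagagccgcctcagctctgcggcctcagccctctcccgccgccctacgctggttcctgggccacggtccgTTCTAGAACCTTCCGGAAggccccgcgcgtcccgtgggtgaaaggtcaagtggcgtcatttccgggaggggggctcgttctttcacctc

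Genes of the acute phase, the plasma proteins that hepatocytes make in inflammation, were lower in tKO almost without exception. Of 28 tested, 27 fell and 0 rose, against 15.2% and 14.3% of all tested genes. The list's median was −0.45, and Ttr alone was not called (edgeR adjusted p = 0.265). The list also holds Alb, whose level is known to drop in inflammation. Saa2, a serum amyloid A gene, stood at 1039, 1072 and 1023 CPM in dKO, 631, 617 and 619 in tKO and 366, 339 and 342 in WT. The tKO level lay part of the way to WT, with a difference of −0.75 ± 0.0366 (edgeR adjusted p = 1.32e-30). Others fell past WT: Hamp, which encodes the iron hormone hepcidin, went from 589 ± 21.8 to 289 ± 21.5 CPM, with 383 ± 15.3 in WT (difference −1.02 ± 0.042, edgeR adjusted p = 5.33e-33). Serpina3n went from 1855 ± 39 to 1034 ± 26.6 CPM, with 1501 ± 50.9 in WT (difference −0.84 ± 0.0351, edgeR adjusted p = 3.32e-35).

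Fibrinogen genes, already lower in dKO than in WT, fell further. Fgb stood at 7309 ± 286 CPM in WT, 5598 ± 81.6 in dKO and 4083 ± 141 in tKO, a difference of −0.46 ± 0.0331 between the knockouts (edgeR adjusted p = 1.36e-20). Hamp2, the second hepcidin gene of the mouse, was alike in WT and dKO (93.9 ± 6.3 and 97.0 ± 5.75 CPM) and lower in tKO (45.3 ± 3.95), by −1.10 ± 0.0632 (edgeR adjusted p = 2.61e-26). Summed over the list, the level was 96700 to 97100 CPM in the WT libraries, 96100 to 97000 in dKO and 81000 to 82800 in tKO. Alb, at 41770 ± 427 CPM in dKO and 37620 ± 838 in tKO, made up a large part of these sums. They therefore do not measure the genes that rise in inflammation. With the liver dispersion 3 members were called lower (Serpina3n, Hamp and Hamp2).

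**Figure D4:**
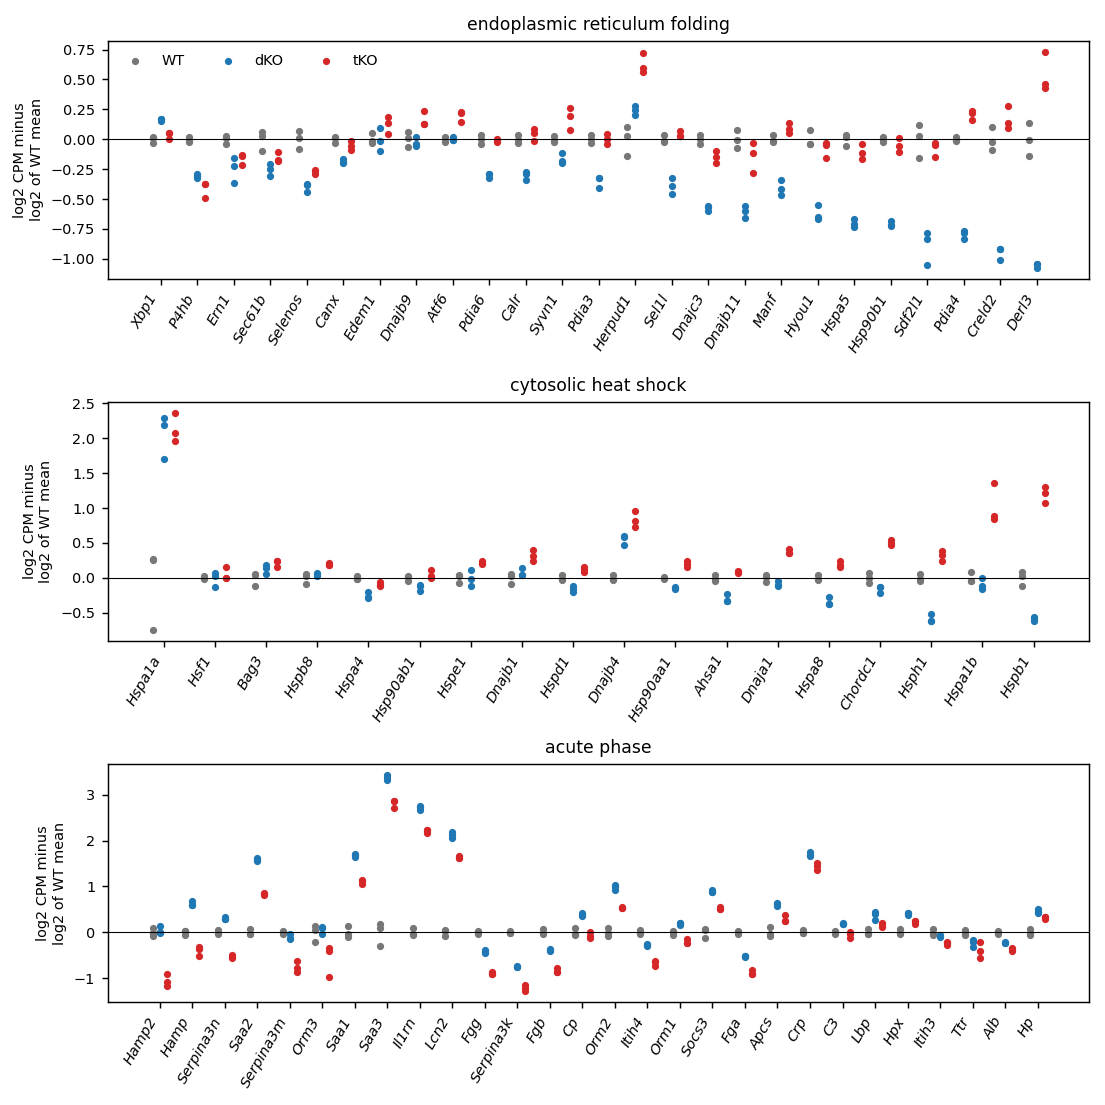
Log2 CPM of each library minus the log2 of the WT mean, for the tested genes of 3 lists: endoplasmic reticulum folding (top), cytosolic heat shock (middle) and acute phase (bottom). Each point is 1 library, coloured by genotype, and 0 is the WT mean. In the upper panels blue dKO points lie below 0 for many genes with red tKO points at or above 0, and in the bottom panel red points lie below blue points.

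The plot of the 3 lists shows the difference of position: chaperone genes of the endoplasmic reticulum gather at the WT line in tKO, while acute phase genes fall from whichever side of WT they had in dKO.

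Some enzymes of fatty acid synthesis that were reduced in dKO were back at the WT level in tKO. Of 21 tested genes of this pathway, 7 rose and 4 fell, beside 14.3% and 15.2% of all tested genes, with a median of −0.04. Of those called, 7 were at the WT level, 1 part of the way, 1 past WT and 2 further from it. Against WT, 13 members were lower in dKO and 10 in tKO. Acaca, which encodes acetyl-CoA carboxylase, the committed step, stood at 119, 106 and 105 CPM in dKO and at 222, 228 and 251 in tKO, with 225 ± 16.5 in WT. No dKO library reached the others, and the difference was 1.09 ± 0.0527 (edgeR adjusted p = 1e-24). Scd1, the stearoyl-CoA desaturase, rose from 2048 ± 28.8 to 3603 ± 162 CPM, with 3728 ± 322 in WT (difference 0.81 ± 0.0433, edgeR adjusted p = 1.16e-15). Elovl6 rose part of the way by 0.67 ± 0.07, Acly by 0.48 ± 0.0403 and Fasn by 0.34 ± 0.0396 (edgeR adjusted p = 3.37e-13, 1.88e-17 and 2.87e-11). The 4 that fell were the elongase Elovl2, the desaturases Fads1 and Fads2 and Acss2, and the regulator genes Srebf1 and Mlxipl were not called (−0.04 and −0.06). With the liver dispersion Acaca and Scd1 were called.

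Genes of fatty acid oxidation went the other way on balance, with 4 of 30 tested higher and 14 lower and a median of −0.14. For this list and the 2 below, the shares over all tested genes were 14.3% higher and 15.2% lower. Cpt1a, which admits fatty acids into mitochondria, fell from 58.7 ± 1.84 to 32.9 ± 4.18 CPM, past WT (41.99 ± 2.72), by −0.83 ± 0.0735 (edgeR adjusted p = 1.97e-16). The omega-hydroxylase gene Cyp4a14 rose instead, by 0.94 ± 0.0424 (edgeR adjusted p = 9.02e-33). Among lipoprotein genes, 7 of 22 rose and 11 fell: Mttp, which loads lipid onto apolipoprotein B, returned from 80.7 ± 2.75 to 121 ± 5.03 CPM (129 ± 9.31 in WT), and Angptl4, an inhibitor of lipoprotein lipase, fell from 165 ± 0.619 to 86.3 ± 0.821 CPM, by −0.94 ± 0.0506 (edgeR adjusted p = 6.33e-28). Of 24 bile acid genes 7 rose and 7 fell, and the bile salt export pump gene Abcb11 returned from 55.6 ± 3.5 to 107 ± 1.41 CPM, with 94.2 ± 2.35 in WT (difference 0.95 ± 0.0573, edgeR adjusted p = 5.2e-25).

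Among 32 tested genes of glucose and fructose metabolism, 8 rose and 17 fell, beside 14.3% and 15.2% of all tested genes. Their median was −0.26. Hexokinases of other tissues, Hk1 and Hk2, fell from 28.8 ± 1.83 to 12.3 ± 0.346 CPM and from 15.4 ± 0.727 to 6.04 ± 0.931 CPM, by −1.23 ± 0.105 and −1.35 ± 0.146 (edgeR adjusted p = 3.27e-17 and 1.34e-12). The fructose pathway gene Tkfc rose by 0.90 ± 0.0475 (edgeR adjusted p = 1.29e-28). The glycolysis genes Ldha and Pfkl fell by −0.51 ± 0.0345 and −0.54 ± 0.0421, and the glucose transporter Slc2a1 by −0.52 ± 0.0403 (edgeR adjusted p = 4.36e-22, 8.28e-19 and 3.3e-19). Hk1, Hk2 and Tkfc kept the call with the liver dispersion, and Ldha, Pfkl and Slc2a1 did not.

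Among the calls, genes of sphingolipid synthesis and breakdown rose more often than they fell, beside 14.3% higher and 15.2% lower over all tested genes. Of 17 tested genes of synthesis, 8 rose and 1 fell with a median of 0.11, and 0 were called with the liver dispersion. B4galt6, a lactosylceramide synthase gene of low level, rose from 3.08 ± 0.208 to 6.01 ± 1.25 CPM, by 0.96 ± 0.212 (edgeR adjusted p = 0.000181). B4galt5, which makes lactosylceramide, stood at 52.7 ± 3 CPM in WT, 80.2 ± 4.47 in dKO and 105 ± 3.91 in tKO, by 0.39 ± 0.0556 higher in tKO than in dKO (edgeR adjusted p = 1.22e-08). Ugcg, the glucosylceramide synthase before it, rose by 0.17 ± 0.0436, and Kdsr, of ceramide synthesis, by 0.40 ± 0.0728 (edgeR adjusted p = 0.00151 and 7.37e-06). Col4a3bp, which encodes the ceramide transfer protein CERT, rose by 0.29 ± 0.0623 (edgeR adjusted p = 0.000132). Of 26 genes of breakdown, 8 rose, 3 fell and 15 were not called, with a median of −0.02, and 5 rose where dKO replicate 5 was left out. Smpdl3b, a sphingomyelinase-like gene near the limit of detection, rose from 1.002 ± 0.407 to 2.68 ± 0.827 CPM, by 1.41 ± 0.339 (edgeR adjusted p = 0.000655), and was the 1 member called with the liver dispersion. The lysosomal genes Neu1 and Arsa rose by 0.48 ± 0.0614 and 0.48 ± 0.0582, and Plpp3, a lipid phosphatase, fell by −0.63 ± 0.0682 (edgeR adjusted p = 5.4e-10, 6.86e-10 and 1.58e-12). In the lists for phospholipid synthesis and diacylglycerol signalling, 5 of 22 and 3 of 16 rose and 3 and 2 fell, against the same 14.3% and 15.2%. Their medians were −0.03 and −0.01, and 0 members were called with the liver dispersion. Lysosome genes rose in 20 of 35 cases and fell in 2, with a median of 0.18 and 17 members further from WT. The autophagy receptor Sqstm1 rose from 2961 ± 28.9 to 3966 ± 72 CPM, by 0.42 ± 0.033, and the acid lipase Lipa by 0.60 ± 0.054 (edgeR adjusted p = 6.66e-19 and 5.57e-16), and 0 of the 35 were called with the liver dispersion.

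Interferon-induced genes stayed high in tKO. Their median lay 0.99 above WT in dKO and 1.15 above it in tKO. Between the knockouts 14 of 34 tested rose and 1, Oas1a, fell, beside 14.3% and 15.2% of all tested genes. Ifit3b stood at 19.2 ± 3.85 CPM in WT, 132 ± 4.08 in dKO and 209 ± 12.4 in tKO, a difference of 0.66 ± 0.0527 between the knockouts (edgeR adjusted p = 7.22e-16). Mx1, an antiviral GTPase, rose by 1.02 ± 0.142 and was the 1 member called with the liver dispersion (edgeR adjusted p = 7.02e-09, and 0.00814 with the liver dispersion). Rsad2 and Isg15, of the same list, differed by 0.01 and 0.05 and were not called. The chemokine genes Cxcl11 and Cxcl9, both induced by interferon gamma, parted: Cxcl11 fell by −1.95 ± 0.203 and Cxcl9 rose by 0.59 ± 0.0838 (edgeR adjusted p = 3.1e-13 and 1.12e-08). Of 27 tested inflammatory mediators 3 rose and 13 fell, and the alarmin gene Il33 fell from 48.2 ± 2.37 to 13.7 ± 1.08 CPM, below its WT level of 34.5 ± 1.01, by −1.82 ± 0.0868 (edgeR adjusted p = 2.9e-31).

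Matrix genes and markers of endothelium and stellate cells were lower in tKO, while macrophage markers were divided. Of 28 tested matrix and protease genes, 1 rose (Cyr61) and 23 fell, with a median of −0.91, and 13 fell with the liver dispersion. For these and the marker lists, the shares over all tested genes were 14.3% higher and 15.2% lower, and 1.88% lower with the liver dispersion. Of the 15 tested markers of liver endothelium 12 fell and 0 rose, with a median of −0.80, 6 of them also with the liver dispersion, and their summed level was 40.0 to 46.1 CPM in WT, 230.0 to 249 in dKO and 135 to 148 in tKO. Stellate cell and fibroblast markers, of which 5 of 8 fell and 0 rose, summed to 17.1 to 21.4 CPM in WT, 59.1 to 64.7 in dKO and 36.5 to 41.5 in tKO. The WT sum came mostly from Reln (166, 178 and 140 counts). The WT libraries held 0 of Lrat, Lum, Acta2 and Colec11, but Lrat, Acta2 and Colec11 also had 6 counts or fewer in every knockout library. Cholangiocyte markers, of which 2 of 6 fell, summed to 484 to 517 CPM in dKO and 369 to 387 in tKO. Of 8 tested macrophage markers Cd68 and Gpnmb rose and C1qa and Cd5l fell, and the sum was 354 to 377 CPM in dKO and 400.0 to 429 in tKO. Cd68, at 201 ± 5.96 CPM in dKO and 248 ± 16.7 in tKO, made up much of that sum, while C1qa stood at 1.47 ± 0.434 and 0.652 ± 0.0521 CPM. The lower calls numbered 0 under DESeq2 and without dKO replicate 5, tKO replicate 7 or tKO replicate 9, and the higher calls 1 under DESeq2 and without dKO replicate 4 or 5 or tKO replicate 8 or 9. In bulk samples fewer cells of a type and less RNA per cell cannot be told apart, and the part of these cells in the results was not tested.

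Dcn, a matrix gene and fibroblast marker, stood at 27.8, 30.0 and 29.3 CPM in dKO and 15.6, 16.1 and 14.5 in tKO, with 0.434 ± 0.106 in WT (difference −0.91 ± 0.0994, edgeR adjusted p = 1.71e-12). Cdh5 and Pecam1, junction genes of endothelium, fell by −0.86 ± 0.0734 and −1.13 ± 0.0982 (edgeR adjusted p = 3.93e-17 and 1.03e-16). Abundant genes of the matrix list fell too. Fn1, which encodes fibronectin, fell from 1920 ± 39.2 to 1088 ± 34 CPM, by −0.82 ± 0.0354 (edgeR adjusted p = 4.72e-34), and Spp1, the osteopontin gene, by −0.97 ± 0.0502 (edgeR adjusted p = 5.49e-29). Hepatocyte markers were high throughout. Of 9 tested, 2 rose and 5 fell, beside 14.3% and 15.2% of all tested genes, with a median of −0.14. Alb fell by −0.15 ± 0.0298 (edgeR adjusted p = 3.12e-05) from 41770 ± 427 CPM.

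Other defence and stress lists were divided. Of 26 tested NRF2 targets 10 rose and 3 fell, and Gstm3, a glutathione transferase gene, rose from 49.2 ± 3.28 to 160.5 ± 8.27 CPM, with 11.3 ± 1.9 in WT (difference 1.71 ± 0.0596, edgeR adjusted p = 2.37e-40). Of 39 genes of xenobiotic metabolism 16 rose and 11 fell, and Cyp3a11, a main drug-metabolising P450, rose by 0.67 ± 0.0358 while Cyp2e1, of ethanol oxidation, fell by −0.52 ± 0.0338 (edgeR adjusted p = 1.75e-27 and 4.86e-23). Of 23 p53 targets 2 rose and 12 fell, with Cdkn1a back at WT (difference −0.33 ± 0.0412, edgeR adjusted p = 1.55e-10) and Plk2 higher by 1.01 ± 0.0496 (edgeR adjusted p = 1.79e-30). Of 22 genes of the glucocorticoid and fasting response 2 rose and 11 fell, and Ddit4, an inhibitor of mTOR complex 1, fell from 107 ± 1.32 to 24.8 ± 1.51 CPM, below WT at 58.5 ± 4.99 (difference −2.12 ± 0.068, edgeR adjusted p = 7.26e-43). Nuclear-encoded subunits of oxidative phosphorylation (1 of 41 rose, 7 fell) and cytosolic ribosomal proteins (1 of 50 rose, 5 fell) held few higher calls. Over all tested genes 14.3% were higher and 15.2% lower. The lower share for oxidative phosphorylation was near that of all genes, and the one for ribosomal proteins was smaller. The lower calls were 4 for oxidative phosphorylation without dKO replicate 5 or 6 or tKO replicate 9, and 3 for ribosomal proteins without dKO replicate 5 or tKO replicate 9.

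**Figure D5:**
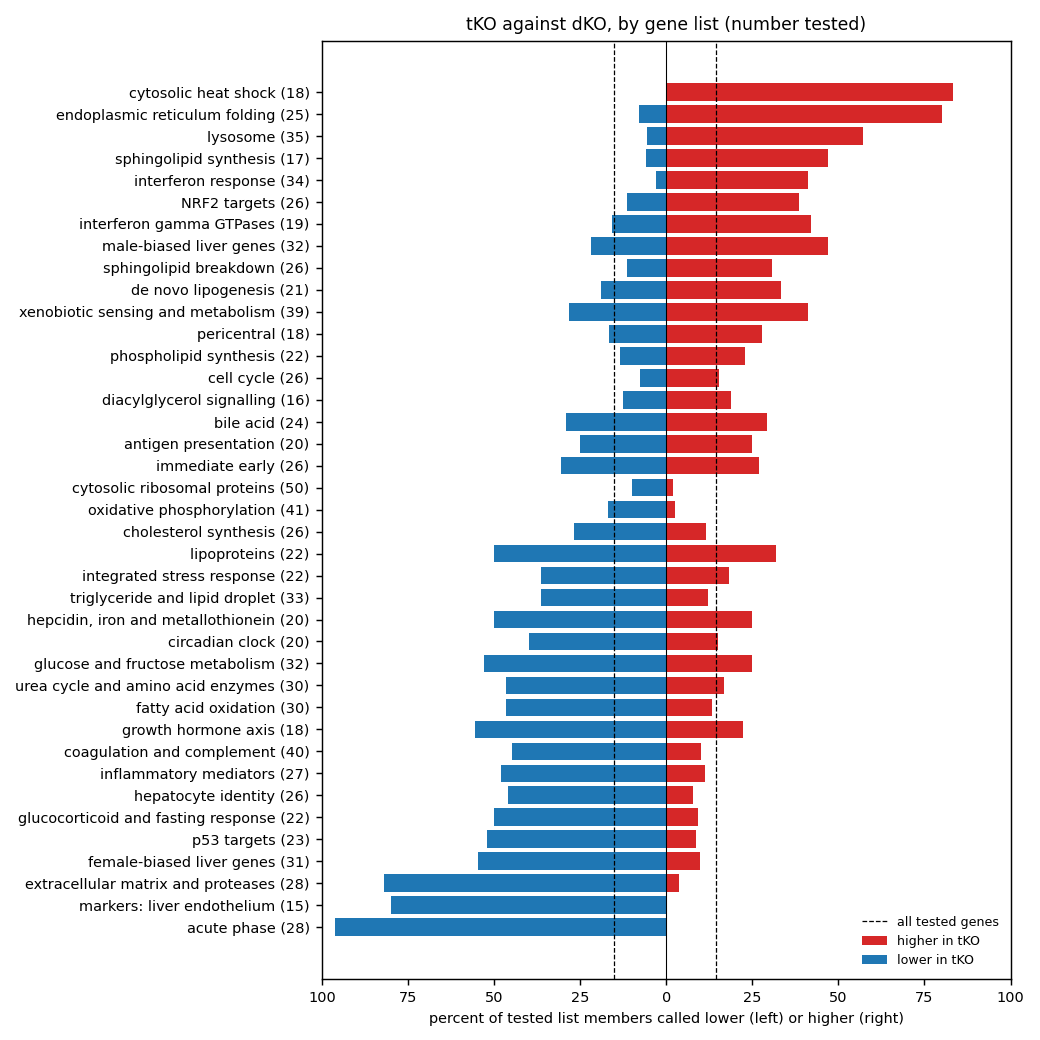
Percent of the tested members of each gene list called higher (red, to the right) or lower (blue, to the left) in tKO than in dKO, with the number tested in brackets. Dashed lines give the same shares over all 11471 tested genes, 14.3% higher and 15.2% lower. Heat shock and endoplasmic reticulum folding lists lie at the top, and the acute phase, endothelial and matrix lists at the bottom.

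The plot of list shares sets these lists side by side, ordered by the surplus of higher over lower calls, and most lists of metabolism hold calls in both directions.

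Some of the largest differences lay outside the lists. Ptgds, a prostaglandin D synthase gene, stood at 0.214, 0.43 and 0.97 CPM in dKO and 10.01, 9.57 and 9.15 in tKO, with 0.109 ± 0.108 in WT, so that it was near its floor in all but the tKO libraries (difference 4.12 ± 0.283, edgeR adjusted p = 6.83e-22). Mbnl2, a splicing regulator, stood at 32.0, 29.7 and 33.1 CPM in dKO, 174, 155 and 163 in tKO and 115 ± 6.46 in WT, low in the dKO libraries only (difference 2.37 ± 0.0614, edgeR adjusted p = 1.49e-49). Hgsnat, a lysosomal acetyltransferase of heparan sulfate breakdown, rose from 273 ± 17.1 to 672 ± 21 CPM, past WT at 379.8 ± 14.8 (difference 1.3 ± 0.0409, edgeR adjusted p = 1.73e-43). Slpi, a secreted protease inhibitor, and Cd9, a tetraspanin, were raised in dKO and rose further, by 1.42 ± 0.0483 and 1.37 ± 0.0491 (edgeR adjusted p = 5.17e-38 and 1.43e-39).

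Erdr1 (chrX:170010526-170018797), at the end of chromosome X, stood at 157, 144 and 137 CPM in dKO, 20.1, 21.9 and 22.9 in tKO and 58.3 ± 6.08 in WT. The difference was −2.75 ± 0.0702 (edgeR adjusted p = 9.28e-46). Atp10d, a phospholipid flippase gene, returned from 8.73 ± 0.882 to 1.99 ± 0.483 CPM, with 2.28 ± 0.195 in WT (difference −2.13 ± 0.208, edgeR adjusted p = 2.19e-14). The secreted glycoprotein gene Stc1 fell by −2.01 ± 0.205 (edgeR adjusted p = 1.39e-13), from 8.73 ± 0.265 to 2.16 ± 0.482 CPM, and remained above WT at 0.289 ± 0.0609. Gpd1, glycerol-3-phosphate dehydrogenase, was at 80.3 ± 3.75 CPM in WT, 37.3 ± 0.745 in dKO and 81.7 ± 0.81 in tKO, a return to the WT level (difference 1.13 ± 0.0636, edgeR adjusted p = 6.86e-27).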

How the data were processed

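RNA of 9 hepatocyte samples was analysed. Per the file headers, the authors deposited 1 table per sample with an expected count and an FPKM value per Entrez gene. Per the submitters' processing notes, Trimmomatic 0.36, STAR 2.5.2b, Bowtie2 2.2.5 and DESeq2 1.30.1 and the builds GRCm38 and mm10 were used. The counting tool and its strand setting were not given in the sources, which leaves overlapping genes, antisense genes and close copies uncertain. The deposited expected counts were rounded to whole numbers, as 6.25% had decimals. The deposited FPKM values, with a lowest listed value of 0.01, served only as alternatives, on log2(FPKM + 1) and log2(FPKM + 0.1). For the dispersion alternative, the liver counts deposited by the authors as whole-number counts per gene were used. Genes that a file does not list were set to 0 there. Of 15632 genes listed in any file, 15611 matched RefSeq by Entrez identifier, which gave the coordinates.

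All 9 libraries were fitted together in edgeR 4.0.16 (R 4.3.3; filterByExpr with minimum count 10, TMM, robust quasi-likelihood F test, Benjamini-Hochberg over 11471 genes, threshold 0.05). The SE was derived from F and the log2 fold change. Summed levels use plain library totals, with no TMM scaling. Folds of genes near 0 use counts over the group with exact intervals, which cover counting error only. Replicates differed beyond sampling noise in every pair (chi-square per degree of freedom 1.56 to 2.76). On simulated data for this comparison with 11471 genes, recovery was 80.3% at 1.5-fold (66 genes), 92.4% at 2-fold (66 genes) and 98.4% at 4-fold (64 genes), with 10 false calls among 187. The simulated counts took the spread of these same libraries and changed few genes. They therefore give no error rate for the 3382 calls of the data.

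The samples, gene lists and tests were chosen with earlier results of these data known, and no list was tested as a set. Named genes were those targeted, the calls with the largest fold, at most 15 in each direction (mean of at least 5 CPM, groups that do not overlap), up to 5 per WT class and direction and up to 6 per list with the smallest p. Other genes were named after their values were seen, among them Sult2a1, Cyp3a41b, Cyp3a16, A1bg, Cyp2d9, Cyp4a12b, Sdf2l1, Hk1, Hk2, Hspa1b and members listed as not called. Alternatives were DESeq2 1.42.0, limma 3.58.1 (voom and log2 FPKM), other scalings, no filter, the 6 knockout libraries alone, a test against 1.5-fold, the liver dispersion and leaving out each library. Transcripts were aligned with blastn 2.17.0, and figures were drawn with matplotlib 3.10.9. Some genes are not reported here.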

Additional observations from a re-analysis of the deposited data

How the results depend on the processing

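Of the 257 named genes that were called, 0 changed sign under an alternative. The balance of calls did turn: in place of 1641 higher and 1741 lower, library totals gave 1971 and 1523, limma on log2(FPKM + 1) 1679 and 1349, and limma on log2(FPKM + 0.1) 1650 and 1288. The liver dispersion called 326 genes, 110 higher and 216 lower, and 91 list genes in place of 531, with 32 genes at the WT level, 78 part of the way, 17 past WT and 36 further from WT; 316 of its calls were also called by the quasi-likelihood test. A test against 1.5-fold called 240 genes, 96 higher and 144 lower, 179 of them at 2-fold or more in place of 312, and 80 list genes. limma on log2(FPKM + 1) put 94 genes at 2-fold or more, and on log2(FPKM + 0.1) 239. DESeq2 called 2467 genes, 2463 of them shared. Library totals in place of TMM moved the share of higher calls from 48.5% to 56.4%. With WT taken as within 1.1-fold, 64 genes were at the WT level, and within 1.5-fold 207 were at and 46 past it. Of these genes, 172 lost the call with the liver dispersion, 14 without at least 1 library and 8 under DESeq2. No paired analysis was possible because the groups share no replicate numbers. The position of WT could not be computed from the knockout libraries alone. Depth limited low genes such as Cyp4a12b, and leaving out 1 library changed no whole-comparison count by over 1.5 times. It did move 19 of 90 counts of list members by more than that. Besides those given above, these include 1 higher cell cycle gene in place of 4 without dKO replicate 5, 1 higher clock gene in place of 3 without dKO replicate 5 or tKO replicate 8, 1 lower gene for folding in the endoplasmic reticulum in place of 2 without dKO replicate 5 or tKO replicate 9, 1 lower lysosome gene in place of 2 without dKO replicate 6, 1 lower diacylglycerol gene in place of 2 without dKO replicate 4 or 6 or tKO replicate 7 or 9, and 1 higher glucocorticoid gene in place of 2 without dKO replicate 5 or 6 or tKO replicate 7.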

Other observations

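A list of hypoxia-induced genes was compiled after values had been seen and is given as a description only. Of its 43 tested members 39 were lower in tKO than in dKO (15.2% of all tested genes) and 2 higher (14.3%), Gbe1 and Gpi1. The median was −0.53, and 14 were lower with the liver dispersion (1.88% of all tested genes). Vegfa, the endothelial growth factor, stood at 270.1 ± 7.59 CPM in WT, 432 ± 25.1 in dKO and 287 ± 18.1 in tKO (n = 3 each). The mitophagy gene Bnip3 stood at 559.9 ± 16.5, 675 ± 29.8 and 428 ± 26.1 CPM and Ndufa4l2 at 16.3 ± 0.795, 28.1 ± 4.66 and 8.31 ± 1.09 in the same order. In Vegfa tKO lay at the WT level, and in Bnip3 and Ndufa4l2 it lay past it. The members shared with the lists above include Ddit4, Angptl4, Ldha, Hk1, Hk2 and Loxl2.

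Mid1, at the same end of chromosome X as Erdr1, stood at 34.8, 23.8 and 24.3 CPM in dKO and 8.15, 7.39 and 8.03 in tKO, with 18.3 ± 1.26 in WT. The imprinted gene Grb10, an adaptor of the insulin receptor, stood at 40.4 ± 1.41 CPM in dKO, 13.7 ± 1.12 in tKO and 29.9 ± 3.77 in WT. Mup10 counts were erratic within groups, with 14, 0 and 59 in dKO and 4, 0 and 0 in tKO.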
